A study of Mus musculus with 11 samples.

Results

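Fibroblasts sorted from mammary carcinomas were compared with fibroblasts sorted from hyperplastic mammary glands, both taken from female MMTV-PyMT mice. The comparison used 6 of the 11 arrays of the series, chosen by the stage in the sample titles. Hyperplasia was sampled at 4 weeks of age in cohorts D6, D7 and D12, and carcinoma at 9 weeks in cohorts D3, D4 and D10. In MMTV-PyMT mice, which are on the FVB/n background, the mouse mammary tumour virus promoter drives the polyoma virus middle T oncogene in the mammary epithelium, so that the transformed cell is epithelial and the fibroblast is its neighbour. Every stage of this model has its own age, and tumour stage and age therefore cannot be told apart. Cells were sorted by flow cytometry and profiled without culture. The labels call them positive for CD140 and negative for F4/80 and EpCAM, whereas the study's methods name CD140a and F4/80 for the arrays and EpCAM for other sorts, so that removal of epithelial cells by EpCAM is not settled by these sources. Each array held the pooled RNA of 1 cohort of mice, so that 3 cohorts stood on each side. The remaining arrays came from normal glands of FVB/n mice without the transgene at 8 weeks (D2 and D5) and from advanced carcinoma at 12 weeks (D8, D9 and D11).

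Fibroblasts of the mammary gland lay down the collagen and proteoglycan scaffold around ducts and supply growth factors to the epithelium, and in tumours they are called cancer-associated fibroblasts (CAFs). The gland at 4 weeks is still that of a juvenile female, in which ducts elongate into a growing fat pad, and imprinted growth genes are known to decline in many tissues as a young animal matures. CAFs are known for matrix remodelling and for secretion of chemokines and cytokines. Expression is given throughout as log2 values of the robust multi-average method, a summary of the probes of 1 gene on 1 array, and a difference of 1 is a doubling. Values of hyperplasia are given in the order D6, D7 and D12 and those of carcinoma in the order D3, D4 and D10. A gene is said to have risen or fallen only where its adjusted p in limma was under 0.05, with the adjustment over all 19938 genes.

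The 6 arrays were first checked for the cells they held. Genes that mark fibroblasts were bright on every array, and the mean of 13 such genes lay between 11.19 and 11.32 in hyperplasia. In carcinoma this mean was 11.00 in D3 and 11.04 in D10 and 9.41 in D4. No fibroblast marker was called in limma (2 of 13 had an unadjusted p under 0.05). However, 9 of the 13 lay wholly lower in carcinoma (18.0% of all genes tested), and their median difference was -0.82. The mean of 15 luminal epithelial genes was 5.96, 6.56 and 7.37 in hyperplasia against 8.64, 9.44 and 8.23 in carcinoma, and 14 of the 15 lay wholly higher in carcinoma (12.4% of all genes tested). Macrophage genes (13 measured) averaged 4.70, 4.88 and 5.13 in hyperplasia and 6.06, 7.41 and 5.92 in carcinoma, and 12 of them lay wholly higher. Carcinoma D4 was thus the lowest of the 6 arrays in the fibroblast list and the highest in the luminal and macrophage lists, and hyperplasia D12 was the highest of its stage in luminal and lymphocyte genes. In 9 T and NK cell genes D12 averaged 8.32 against 6.42 and 6.93 in D6 and D7. Log2 intensities have no true zero, so that none of these markers could be called absent.

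**Figure D1:**
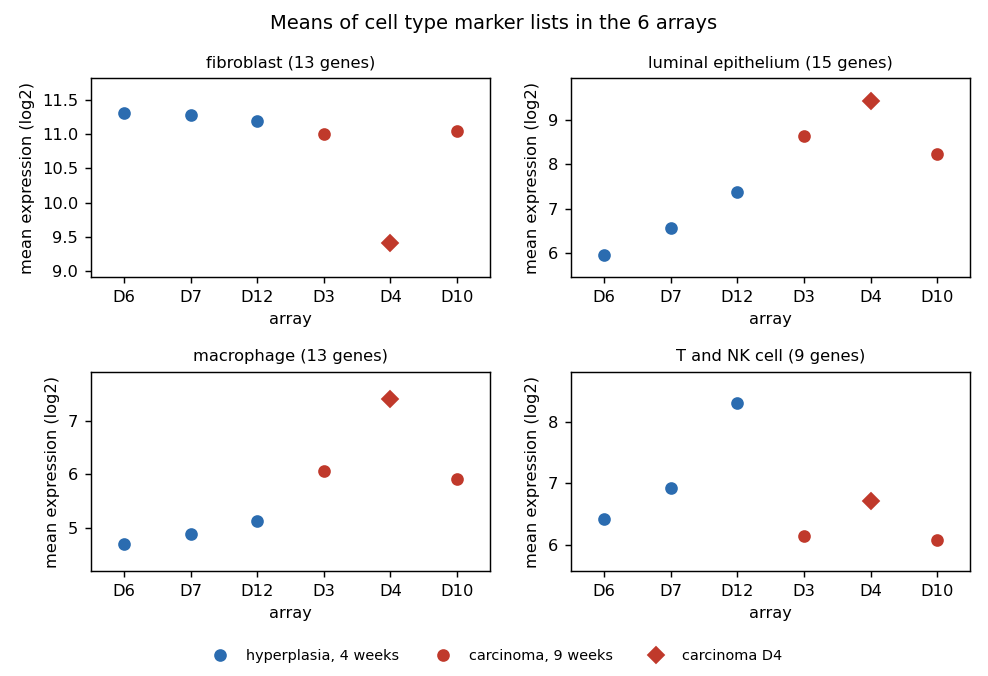
Mean log2 expression of 4 marker lists on each of the 6 arrays, with hyperplasia in blue and carcinoma in red (diamond, carcinoma D4) and a separate vertical scale for each list. The fibroblast mean of D4 sits at 9.41 while the other 5 arrays lie between 11.00 and 11.32, and the luminal and macrophage means of all 3 carcinoma arrays lie above those of the hyperplasia arrays.

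The genes of the sort itself were then read. Pdgfra, which encodes CD140a, read 11.24, 11.32 and 11.10 in hyperplasia and 10.90, 9.21 and 11.01 in carcinoma, a difference of -0.85 (SE 0.44, adjusted p = 0.281). Epcam, an epithelial surface protein that the labels give as negative, read 6.02, 6.81 and 7.66 in hyperplasia and 9.29, 9.91 and 8.91 in carcinoma, and it rose by 2.54 (SE 0.42, adjusted p = 0.0320). All carcinoma arrays were above all hyperplasia arrays for Epcam. Adgre1, which encodes F4/80, differed by 2.02 (SE 0.50, adjusted p = 0.0678), with 5.48, 7.23 and 5.18 in carcinoma against 3.73, 3.87 and 4.25 in hyperplasia. Ptprc, the leukocyte antigen CD45, is not named in the labels' gate and overlapped between the stages (difference -0.68, adjusted p = 0.437). The arrays measured sorted cells in bulk, and fewer cells of a type and less RNA per cell cannot be told apart in them. The part of epithelial or macrophage RNA in any gene difference below was not tested.

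On average over all genes the stages were farther apart than the arrays within a stage, but the widest distances all involved carcinoma D4. The distance between arrays, taken as 1 minus Pearson's r across genes, averaged 0.0137 within hyperplasia (0.00798 to 0.0181), 0.0319 within carcinoma (0.00633 to 0.050) and 0.0492 between the stages (0.0229 to 0.104). Carcinoma D3 and D10 were the closest pair. Across the stages, the pairs with D4 lay between 0.0724 and 0.104 and those without it between 0.0229 (D12 with D10) and 0.0364 (D6 with D3). The pairs of D4 with D3 (0.0393) and D10 (0.050) were thus farther apart than every pair across the stages without D4. These distances are descriptions across genes, which are not independent replicates.

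In limma, 562 genes were higher in carcinoma (2.82% of those tested) and 354 were lower (1.78%), which made 916 genes in all (4.59%). The risen genes had a median difference of 1.34 and the fallen genes of -0.66, while the median over all genes was -0.04. None of the called genes overlapped between the stages. Over all genes tested, 2463 (12.4%) lay wholly higher and 3589 (18.0%) wholly lower in carcinoma without such a call being required. With each array centred on its own median, which moved the median over all genes to -0.12, the split became 608 higher and 612 lower. Differences above 2-fold numbered 367 among the risen genes and 88 among the fallen ones, and differences above 4-fold 145 and 13.

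The number of calls depended on which arrays lent their spread. The fit took the error from hyperplasia, carcinoma and the advanced carcinoma arrays D8 and D9. With the 6 arrays of the compared stages alone, no gene was higher and 5 were lower, although 4020 genes had an unadjusted p under 0.05, and the smallest adjusted p was 0.0478. These 5 were Igf2, Necab1, Dlk1, Capn6 and Alkal2. Without hyperplasia D6 the calls were 8 higher and 21 lower, without D7 they were 1 and 8, and without carcinoma D3 they were 5 and 8. In these settings, and without advanced carcinoma D8 or D9, many of the lists described below held no called member. Among them were the milk, luminal, acute-phase, macrophage, CC chemokine, inflammasome, interferon, collagen, basement membrane, glycolysis and lipogenesis lists. The same held for the matricellular, matrix metalloproteinase, ADAMTS, mesenchymal transcription factor, immediate early, complement, CXC chemokine, retinoid, hormone, glucocorticoid, adipocyte and pericyte lists. Without carcinoma D4 the calls were 924 and 628, of which 852 in all were among the 916. Without carcinoma D10 they were 810 and 597. At the threshold of the study's methods, which takes genes of more than 1.5-fold change whose unadjusted p is below 0.05, 1119 genes (5.61%) were higher and 877 (4.4%) were lower, and this total of 1996 changed by less than 1.5 times in every setting tried. Its parts moved more, to 1439 lower without carcinoma D10 and to 726 higher when dim genes were removed, which left 9969 genes tested.

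**Figure D2:**
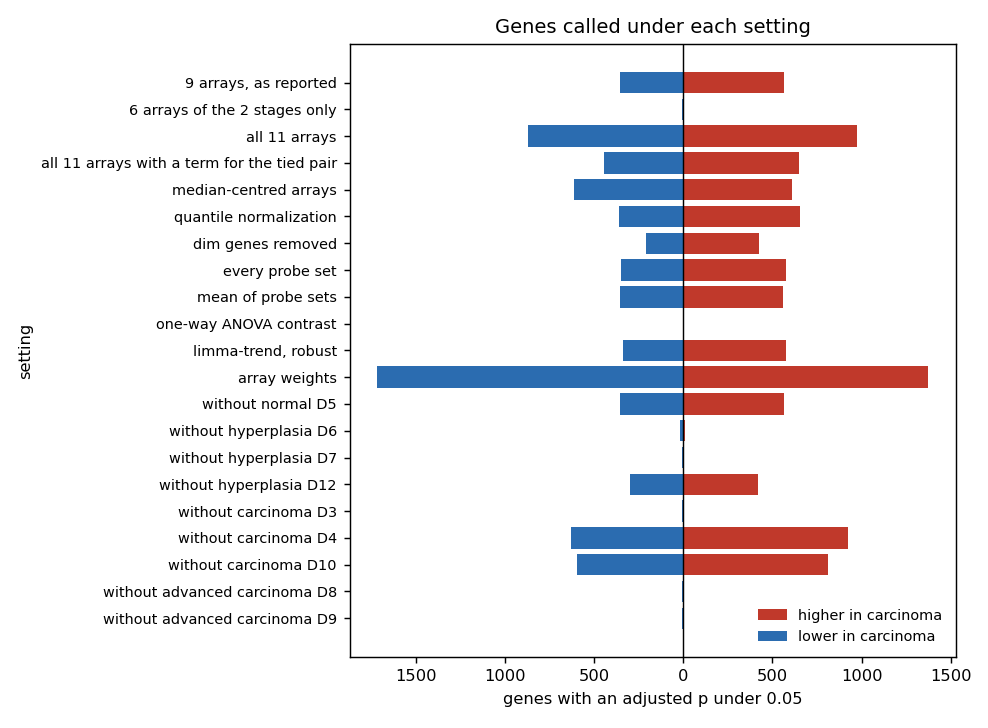
Number of genes with an adjusted p under 0.05 in each setting, higher in carcinoma to the right and lower to the left of 0. The reported fit gives 562 and 354, the 6 arrays alone give 0 and 5, and array weights give 1372 and 1716.

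The genes with the largest rise in carcinoma included milk protein and acute-phase genes. Csn2, which encodes the milk protein beta-casein, read 6.25, 6.74 and 9.60 in hyperplasia and 11.78, 12.08 and 10.80 in carcinoma. It rose by 4.02 (SE 0.84, adjusted p = 0.0466), a fold change of 16.2. The spread within hyperplasia was wide, and D12 stood 2.86 above the next cohort. Normal D5 read 9.58, nearer to the carcinoma than to the hyperplasia mean. Saa2, an acute-phase serum amyloid, read 3.80, 4.37 and 5.56 in hyperplasia and 8.52, 9.14 and 7.58 in carcinoma. The rise was 3.84 (SE 0.52, adjusted p = 0.0266), and the lowest carcinoma array was 2.02 above the highest hyperplasia array. Saa2 has a close paralogue in Saa1, and probes that both share could not be separated. The other genes among the 15 largest rises were Csn1s1 (3.78), Slc34a2 (3.27), Lrg1 (3.23), Slc28a3 (3.22), Dkkl1 (3.15), Slc38a3 (3.10), Celsr2 (3.06), Wfdc17 (3.05), Pigr (3.05), Aldoc (3.01), Muc15 (3.01), Atp6v1b1 (2.98) and Zfp750 (2.98). Slc34a2, Slc28a3 and Slc38a3 are membrane transporters of phosphate, nucleosides and glutamine, Pigr carries polymeric antibodies across epithelia, and Zfp750 is a regulator of epithelial differentiation. A clone-named transcript, 2310057J18Rik, had a larger rise of 4.81 and is named here because its value was seen, since clone-named genes were otherwise left aside.

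**Figure D3:**
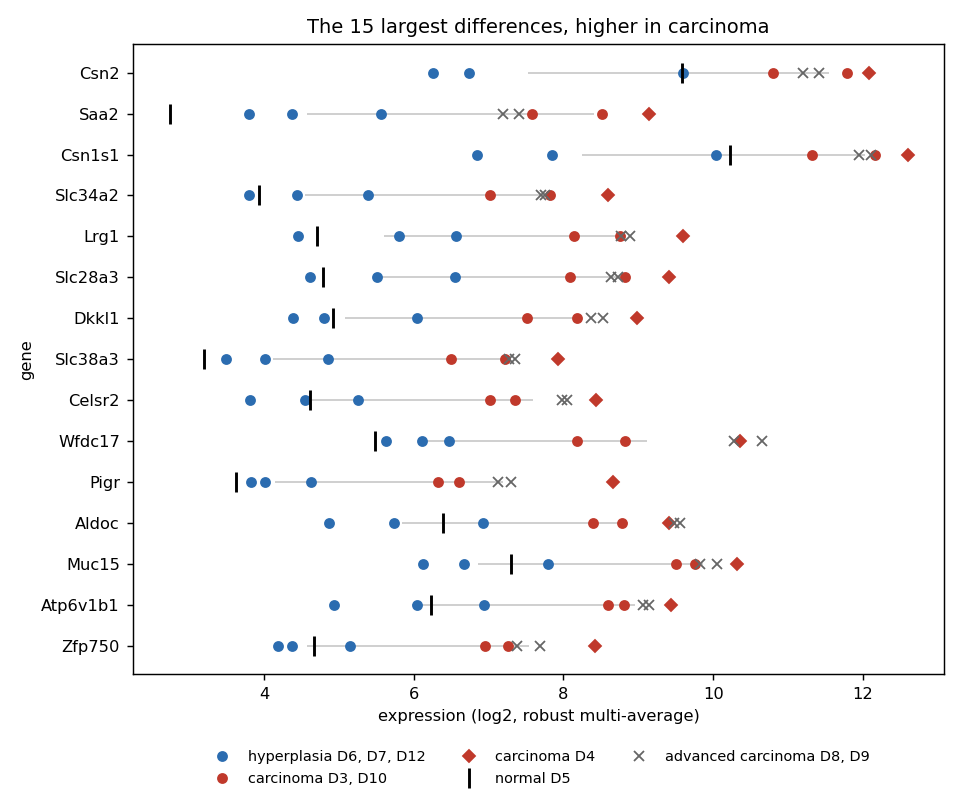
Log2 expression of the 15 genes with the largest rise, 1 row per gene, in hyperplasia (blue) and carcinoma (red), with grey lines joining the stage means. Black bars are normal D5 and crosses are advanced carcinoma D8 and D9, which took no part in the differences. Hyperplasia D12 lies nearest to carcinoma in every row and D4 is the highest carcinoma array.

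Milk and luminal genes moved together. Of 15 milk and secretory genes measured, 8 rose and none fell, with a median difference of 2.47, and of 15 luminal markers 11 rose, with a median of 2.23 (all genes 2.82% higher, median -0.04). Csn1s1, the alpha-casein gene, read 6.84, 7.85 and 10.04 in hyperplasia and 12.16, 12.60 and 11.32 in carcinoma. D12 was nearest to carcinoma, as for Csn2. Wap, whey acidic protein, rose by 2.67 (SE 0.49). Ltf, the iron-binding lactoferrin, rose by 2.92 and Btn1a1, a protein of the milk fat globule membrane, by 2.61. Among luminal genes the epithelial transcription factors Ehf (2.96) and Elf5 (2.82), the splicing regulator Esrp1 (2.84), the adhesion protein Cdh1 (2.48) and the claudins Cldn3 (2.24) and Cldn4 (2.23) rose. The keratins Krt8 (1.76, adjusted p = 0.0540) and Krt19 (0.77, adjusted p = 0.198) did not pass, and Krt19 overlapped between the stages. Of the 6 basal epithelial genes 1 rose, Trp63 (0.85), and Krt5 (2.04, adjusted p = 0.0502) and Krt14 (1.67, adjusted p = 0.0594) did not pass. Without carcinoma D4 the counts were also 8 of 15 and 11 of 15, with medians of 2.0 and 1.91, but both were 0 of 15 without hyperplasia D6, without D7, without carcinoma D3 and with the 6 arrays alone.

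Casein genes are classical targets of the prolactin-activated factor STAT5, whose motif was searched as TTCNNNGAA, which reads the same on both strands. RefSeq (GRCm38.p6) gave a promoter of 300 bases for 11 of the 15 milk and secretory genes. The motif lay in 2 of 6 risen genes with a promoter and in 3 of 5 that were not called, against 9.55% of all 27025 genes with such a promoter. Csn1s1 on chr5:87666038-87666157 (forward strand) and Csn2 on chr5:87699476-87699595 (reverse strand) each held 1 match, which starts 100 and 93 bases before the start site. The 120 bases from 170 to 51 before the start site are shown for these genes because they had the largest rises of the list, with the match in capitals.
Csn1s1: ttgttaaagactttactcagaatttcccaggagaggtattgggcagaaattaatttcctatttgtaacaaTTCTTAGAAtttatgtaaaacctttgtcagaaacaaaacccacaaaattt
Csn2: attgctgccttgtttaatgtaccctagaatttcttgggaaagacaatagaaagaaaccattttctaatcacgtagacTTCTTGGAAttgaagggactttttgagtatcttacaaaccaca
These matches describe the letters of the window and were not measured as binding sites.

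Genes of the acute phase and innate secretion rose in 7 of 15 measured (all genes 2.82%), none fell, and the median difference was 1.23. None of the 15 was called without hyperplasia D6, without D7 or without carcinoma D3. Lrg1, a secreted leucine-rich glycoprotein, read 4.45, 5.80 and 6.56 in hyperplasia and 8.76, 9.59 and 8.15 in carcinoma, and rose by 3.23 (SE 0.56, adjusted p = 0.0333). Chil1, a secreted chitinase-like protein, rose by 2.93 (SE 0.45), from 6.62, 7.52 and 8.65 to 10.50, 10.76 and 10.32. Both showed the same order within hyperplasia, with D6 lowest and D12 highest. Lcn2, an iron-scavenging lipocalin, rose by 1.96, the protease inhibitor Slpi by 1.23, Saa3 by 1.11 and the lipopolysaccharide-binding protein Lbp by 0.44. Haptoglobin (Hp, 1.31, adjusted p = 0.0557) and Saa1 (1.58, adjusted p = 0.0613) did not pass.

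Genes typical of macrophages were higher on the carcinoma arrays and above all on D4. Lyz2, lysozyme of myeloid cells, read 6.51, 6.95 and 7.77 in hyperplasia and 9.46, 11.14 and 9.47 in carcinoma, and rose by 2.95 (SE 0.51, adjusted p = 0.0327). C1qb, a chain of complement C1q, rose by 2.25 (SE 0.41), and the other 11 macrophage genes did not pass. The median difference over all 13 was 1.91. Without D4 the list had 9 of 13 risen genes and a median of 1.37, and without hyperplasia D6, without D7 or without carcinoma D3 it had none. Beside this list, 3 of 17 CC chemokines rose (all genes 2.82%), Ccl6 by 2.42, Ccl9 by 2.08 and Ccl2 by 1.96. Ccl6 and Ccl9 were highest in D4 (8.64 and 8.00), whereas Ccl2, a monocyte attractant, was lowest there, with 7.84, 6.65 and 8.29 in carcinoma against 5.90, 5.55 and 5.45 in hyperplasia. Cx3cl1, a membrane-bound chemokine, was the risen member of 14 CXC and CX3C chemokines (1.87, SE 0.25). C3ar1, the receptor of the complement fragment C3a, rose by 2.67, with 7.78 in D4 against 6.05 and 5.75 in D3 and D10. It was the only called gene in the list of 13 complement genes, which leaves out C1qb, counted above with the macrophage genes. No member of the T and NK cell, B cell, dendritic cell, neutrophil or endothelial lists was called in limma, and 10 of their 42 measured genes had an unadjusted p under 0.05. The median of T and NK cell genes was -1.19, and Cd3g read 8.65, 9.65 and 11.30 in hyperplasia and 8.08, 9.21 and 7.72 in carcinoma, which overlapped.

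The inflammasome cleaves interleukin 1 precursors after sensing danger signals, and its genes were a question of the study. Casp1, the protease of the complex, read 6.04, 5.95 and 6.48 in hyperplasia and 7.18, 7.77 and 7.34 in carcinoma, and rose by 1.28 (SE 0.19, adjusted p = 0.0290). P2rx7, an ATP-gated channel upstream of it, rose by 1.42 (SE 0.22, adjusted p = 0.0316), from 5.86, 5.84 and 6.70 to 7.44, 7.63 and 7.58. The 3 carcinoma arrays lay within 0.59 of each other for Casp1 and within 0.19 for P2rx7. The sensor Nlrp3 differed by 0.34 (adjusted p = 0.307) and its values overlapped, with 3.97, 4.67 and 4.0 in carcinoma and 3.80, 3.85 and 3.97 in hyperplasia. Il1b differed by 1.36 (adjusted p = 0.0793), Il1a by 0.70 (adjusted p = 0.217) and Il18 by -1.04 (adjusted p = 0.102). On all 6 arrays Nlrp3 and Il1a read under 5.64, the limit below which a gene's mean over the 9 arrays was counted as dim. The lack of a call for these 2 genes therefore does not show equal expression. Of 16 genes of the inflammasome and interleukin 1, 2 rose (all genes 2.82%) and none fell. Without carcinoma D4 5 rose and 1 fell, and without hyperplasia D6, without D7 or without carcinoma D3 none was called.

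The fallen genes had smaller differences than the risen ones, and Car3, Lgi1 and Col6a5 led them. Car3, the carbonic anhydrase of fat and muscle, read 11.11, 10.26 and 10.34 in hyperplasia and 8.15, 7.28 and 7.90 in carcinoma, and fell by 2.79 (SE 0.29, adjusted p = 0.0190). Necab1, a calcium-binding protein, read 6.74, 6.74 and 7.26 in hyperplasia and 4.45, 4.34 and 4.61 in carcinoma, and fell by 2.45 (SE 0.15, adjusted p = 0.00850). Carcinoma D4 was within 0.27 of the other carcinoma arrays for Necab1, and all 3 values were under the dim gene limit of 5.64. The remaining genes of the 15 largest decreases were Lgi1 (-2.62), Col6a5 (-2.54), Angptl1 (-2.41), Slc24a3 (-2.40), Nrk (-2.32), Ifi27l2a (-2.18), Mest (-2.10), Igf2 (-2.07), Bmp5 (-2.06), Sema3b (-2.02), Folh1 (-2.01), Fgf18 (-2.0) and Capn6 (-1.98). Col6a5 is a collagen VI chain, Angptl1 a secreted angiopoietin-like protein, Bmp5 and Fgf18 are growth factors, and Sema3b is a secreted guidance protein. For Angptl1 the carcinoma arrays spread widely, with 8.05, 6.56 and 8.50 against 9.99, 10.20 and 10.13 in hyperplasia.

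**Figure D4:**
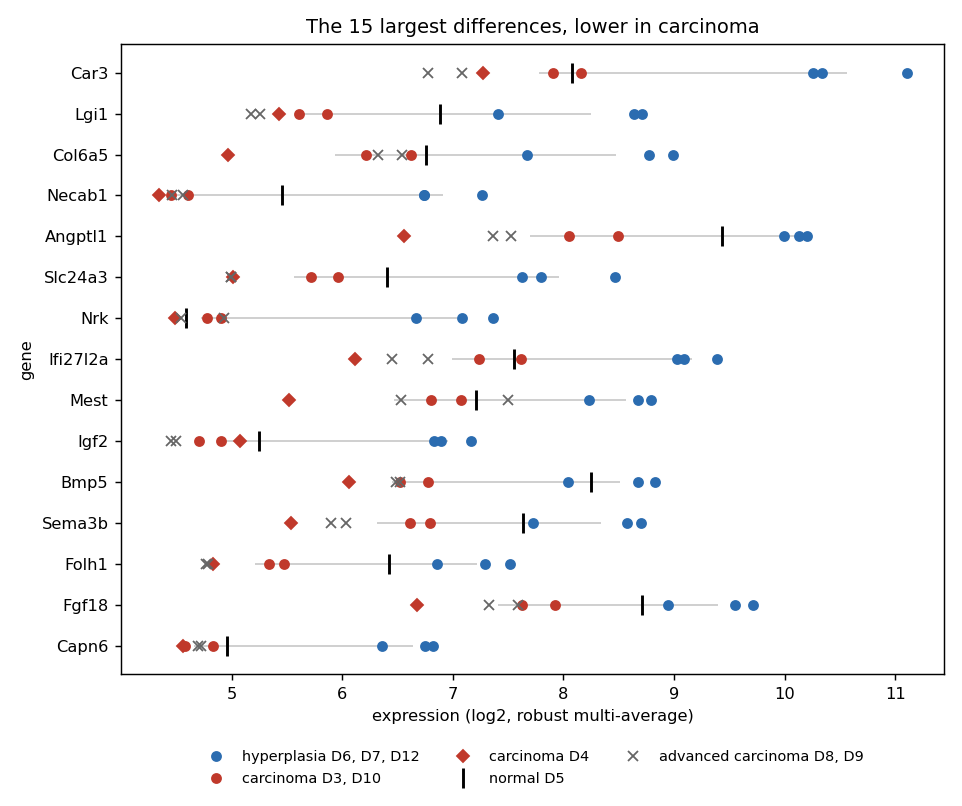
Log2 expression of the 15 genes with the largest decrease, drawn as for the risen genes (hyperplasia blue, carcinoma red, D4 as a diamond, normal D5 as a black bar, advanced carcinoma D8 and D9 as crosses). Normal D5 lies nearer to the carcinoma than to the hyperplasia mean in 10 of the 15 rows.

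Imprinted growth genes, which are read from 1 parental copy and promote or restrain fetal growth, recurred among the fallen genes, and a list of them was drawn up after this was seen. Igf2, a fetal growth factor, read 7.16, 6.89 and 6.83 in hyperplasia and 4.91, 5.07 and 4.70 in carcinoma. It fell by 2.07 (SE 0.12, adjusted p = 0.00850), a fold change of 4.19, and was called in 18 of 19 other settings. Dlk1, which holds back adipocyte differentiation, read 7.46, 6.97 and 7.20 against 5.34, 5.23 and 5.12, and fell by 1.98 (SE 0.18, adjusted p = 0.0147). For Igf2 and Dlk1 the 3 carcinoma arrays lay within 0.37 of each other and D4 did not stand apart. These carcinoma values were under the dim gene limit of 5.64, and whether dim signal narrows the spread was not tested. The cell cycle inhibitor Cdkn1c fell by 1.27 and the mesodermal gene Mest by 2.10. In all, 4 of 20 measured imprinted genes fell (all genes 1.78%), none rose, 15 lay wholly lower in carcinoma (all genes 18.0%), and the median difference was -1.23. Peg3 (-0.94, adjusted p = 0.0834), Plagl1 (-1.25, adjusted p = 0.0697) and Grb10 (-1.26, adjusted p = 0.143) were among those that did not pass. Without D4 the fallen members were 10 of 20, with a median of -0.73, whereas they were 2 of 20 without hyperplasia D6 and with the 6 arrays alone, and 1 of 20 without D7 and without carcinoma D3. In the insulin-like growth factor axis Igf2 was the only called gene of 15, and Igf1 differed by -0.86 (adjusted p = 0.288) and Igfbp3 by -0.94 (adjusted p = 0.0738).

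Interferon-response genes, which are switched on by antiviral signalling, were in part lower in carcinoma. Of 15 measured, 3 fell (all genes 1.78%) and none rose, 7 lay wholly lower (all genes 18.0%), and the median difference was -0.58. None was called without hyperplasia D6, without D7 or without carcinoma D3. Ifit3, an antiviral RNA-pathway protein, read 9.58, 10.03 and 9.58 in hyperplasia and 8.02, 7.56 and 8.48 in carcinoma, and fell by 1.72 (SE 0.27, adjusted p = 0.0310). Ifi27l2a fell by 2.18 (SE 0.36), from 9.38, 9.09 and 9.02 to 7.61, 6.12 and 7.23. The tetherin gene Bst2 fell by 0.64 (SE 0.11), and the values of Usp18 (-1.24, adjusted p = 0.0698) and Ifit1 (-1.11, adjusted p = 0.0956) did not overlap but did not pass. Rsad2 (-0.03) and Oas1a (0.08) overlapped. Normal D5, from a gland of 8 weeks without the transgene, lay nearer to the carcinoma than to the hyperplasia mean in 13 of the 15 genes (86.7%), with a median of -0.94 against hyperplasia.

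The promoters of these genes were searched for the interferon-stimulated response element, searched on either strand as 2 copies of GAAA with 2 bases of any kind between them. RefSeq gave a promoter for 9 of the 15. The motif lay in both fallen genes with a promoter and in 3 of 7 that were not called, against 3.99% of all genes with a promoter of this length. Ifit3 on chr19:34583359-34583478 (forward strand) held 2 matches, at 156 and 122 bases before the start site, both on the opposite strand. Bst2 on chr8:71537523-71537642 (reverse strand) held 2 matches at 130 and 124 bases, which overlap each other. The same 120-base window is shown for both, with the matches in capitals, because these are the fallen members with a promoter.
Ifit3: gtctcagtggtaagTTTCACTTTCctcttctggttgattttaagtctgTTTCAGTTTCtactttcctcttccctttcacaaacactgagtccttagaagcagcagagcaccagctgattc
Bst2: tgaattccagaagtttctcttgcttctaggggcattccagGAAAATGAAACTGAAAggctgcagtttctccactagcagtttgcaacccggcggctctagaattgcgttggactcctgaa
A match in the window is a description of its letters and says nothing of binding in these cells.

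Matrix genes were called in both directions, and carcinoma D4 was the lowest array for many of them. Of 20 collagen chains, 1 rose (all genes 2.82%) and none fell, 12 lay wholly lower (all genes 18.0%), and the median difference was -1.01. This list leaves out Col6a5, which fell as given above, and the collagen IV chains, which are counted with the basement membrane. Col11a1, a fibrillar chain of cartilage and of tumour stroma, read 4.97, 4.80 and 5.11 in hyperplasia and 6.25, 5.73 and 6.02 in carcinoma, and rose by 1.04 (SE 0.15, adjusted p = 0.0288). Col1a1 read 11.62, 11.48 and 11.53 in hyperplasia and 11.27, 9.35 and 11.15 in carcinoma (difference -0.95, adjusted p = 0.256). Col12a1 was higher in D3 and D10 (9.58 and 9.91) and lower in D4 (7.06) than in hyperplasia (8.17, 8.04 and 7.92). Without D4, 4 chains rose and 8 fell, and the median was -0.34. In the basement membrane, the sheet beneath epithelia and vessels, the laminin chains Lama1 (0.84) and Lamb3 (1.71) and the collagen IV chain Col4a6 (0.92) rose (all genes 2.82%). Nidogen Nid2 (-1.60) and Col4a3 (-0.47) fell (all genes 1.78%), of 19 measured. Of these 19, 12 lay wholly lower (all genes 18.0%) and 6 wholly higher (all genes 12.4%), with a median of -0.80. Lamb3 and Col4a6 were highest in D4, and Nid2 was lowest there. Without D4 there were 4 rises and 6 decreases, and without hyperplasia D6, without D7 or without carcinoma D3 no gene of either list was called.

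Among proteins that act on the matrix, 1 of 23 matricellular and elastic fibre genes, 1 of 15 matrix metalloproteinases and 2 of 15 ADAMTS proteases were called, against 4.59% of all genes, and the shares with a single called gene lie near that background. Thbs1, the secreted protein thrombospondin 1, read 9.12, 8.72 and 9.21 in hyperplasia and 10.23, 10.35 and 10.23 in carcinoma, and rose by 1.25 (SE 0.15, adjusted p = 0.0244). Mmp13, a collagenase, rose by 2.03 (SE 0.27), from 3.70, 3.68 and 3.90 to 5.88, 5.18 and 6.31. Its lowest carcinoma value was in D4, the array with the lowest fibroblast mean. Adamts8 rose by 0.90 and Adamts17 fell by 0.81, and with median-centred arrays Adamts8 was not called. Without hyperplasia D6, without D7 or without carcinoma D3 no member of the matricellular, matrix metalloproteinase and ADAMTS lists was called. Small leucine-rich proteoglycans (12 measured, median -0.58), crosslinking enzymes (14, -0.74), protease inhibitors with the plasminogen system (10, -0.64), adventitial progenitor genes (10, -0.99) and contractile myofibroblast genes (12, 0.34) held no called gene in limma, and 18 of these 58 genes had an unadjusted p under 0.05. Among mesenchymal transcription factors Sox9 (2.06) and Runx1 (1.92) rose, of 15 measured, and both are also expressed in mammary epithelium.

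Secreted growth signals had called members on both sides, against 4.59% of all genes called (2.82% higher and 1.78% lower). Without hyperplasia D7, or with the 6 arrays alone, no member of the lists in this paragraph was called. Ltbp2, which binds microfibrils and is related to the proteins that store latent TGF-beta, read 4.50, 4.15 and 4.37 in hyperplasia and 7.06, 6.38 and 7.13 in carcinoma. It rose by 2.52 (SE 0.21, adjusted p = 0.0147), a fold change of 5.73, and was lower in D4 than in D3 and D10. Tgfb3 rose by 0.88 and Inhbb, an activin subunit, by 1.46, while Bmp2 (-0.77), Bmp4 (-1.09), Bmp7 (-1.46) and the TGF-beta-induced matrix protein Tgfbi (-1.05) fell, of 23 measured. All 3 called BMP ligands of this list were thus lower in carcinoma, beside Bmp5 of the largest decreases. The Wnt co-regulator Lgr5 rose by 1.36 and the ligand Wnt5a fell by 1.13, of 22 Wnt genes. Hbegf rose by 0.83 and Fgf18 fell by 2.0, of 21 genes for PDGF, FGF and related ligands and receptors. In the list of angiogenic genes (15) Nrp2 rose by 0.93 and Apln by 1.08, and Angptl1 fell. Among interleukin 6 family genes (11) the oncostatin M receptor Osmr read 8.07, 8.30 and 8.21 in hyperplasia and 9.31, 9.44 and 9.64 in carcinoma and rose by 1.27 (SE 0.10, adjusted p = 0.0147), and the receptor Il6ra fell by 0.83 (SE 0.12). Osmr values lay within 0.33 of each other in each stage, D4 included.

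Lists of metabolic genes held called members, beside shares over all genes of 2.82% higher and 1.78% lower. Of 19 glycolysis and hypoxia genes 4 rose, Pfkl by 1.55, the glucose transporter Slc2a1 by 1.30, Pkm by 0.83 and Ldha by 0.70, and the median was 0.57. Of 14 lipogenesis genes Srebf1, a regulator of lipid synthesis, rose by 1.65 and malic enzyme Me1 by 1.37. Among 12 carbonic anhydrases Car12 (2.72), Car2 (2.36) and Car5b (1.62) rose and Car3 fell. D4 was the highest of the 6 arrays for each of these risen genes, and for Pkm it read 8.91 against 8.62 and 8.86 in D3 and D10. The adipocyte genes Pparg (-0.94) and Plin1 (-0.91) fell, of 10 measured. Of 35 cell cycle genes none was called in limma and 15 had an unadjusted p under 0.05. The difference was positive in 33 of them, with a median of 0.57. Immediate early genes, which tissue dissociation can induce, included 3 risen of 21, Fos (0.58), Fosb (0.87) and Ier3 (1.38), and for Fos and Fosb normal D5 (9.77 and 9.74) was above all carcinoma arrays.

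Further lists held 1 or 2 called members, against 4.59% of all genes, and such counts say little about lists this small. The glucocorticoid receptor Nr3c1 fell by 0.57, the only called gene of 12 hormone genes, and Errfi1 (-0.49) and Sult1a1 (-0.85) fell among 13 glucocorticoid-responsive genes. The retinoid-binding protein Crabp2 rose by 2.21, of 16 retinoid genes, with 6.53, 7.34 and 6.16 in carcinoma against 3.96, 4.55 and 4.89. Kit (2.54) rose in the mast cell list (7) and Mcam (1.49) in the pericyte list (8), while the mast cell proteases Cpa3 (-1.76, adjusted p = 0.0730) and Mcpt4 (-1.11, adjusted p = 0.0966) did not pass. Kit is also a gene of luminal progenitors. No gene of antigen presentation by MHC class II (7) or of leukocyte adhesion and checkpoints (8) was called in limma, and 1 of these 15 had an unadjusted p under 0.05.

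**Figure D5:**
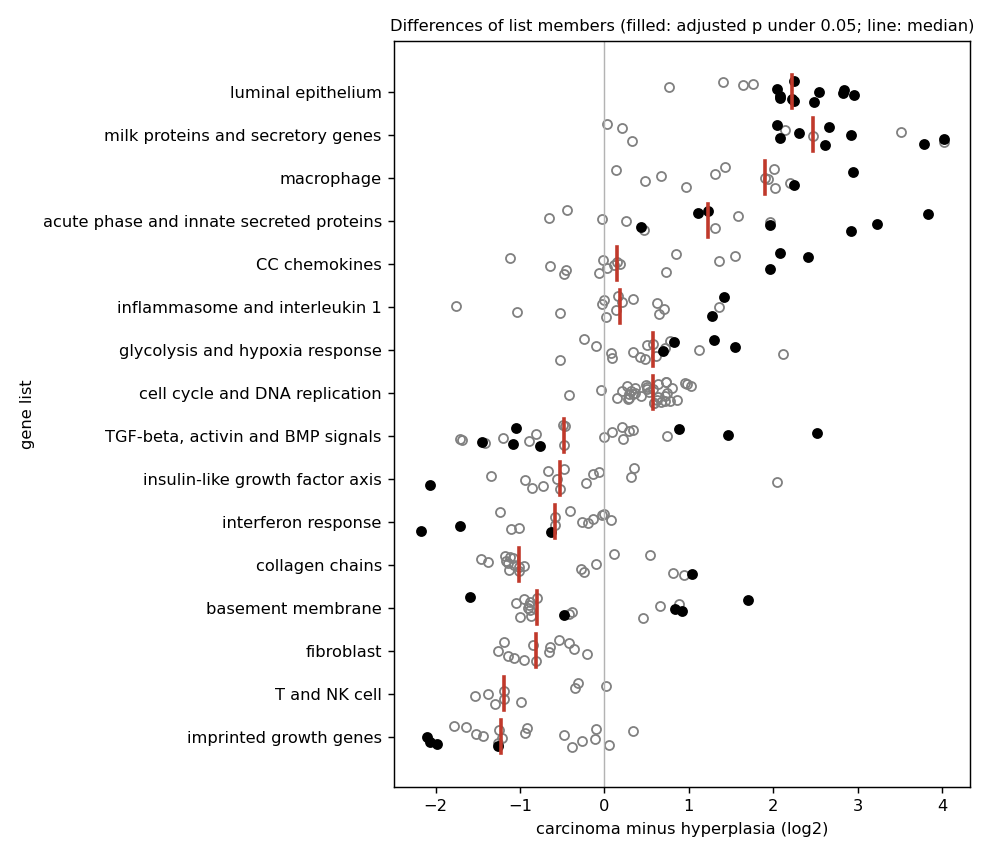
Carcinoma minus hyperplasia difference on the log2 scale for every measured member of 16 lists, 1 circle per gene, filled where the adjusted p was under 0.05, with a red line at the list's median. Luminal (median 2.23) and milk (2.47) genes lie to the right, and collagens (-1.01), T and NK cell genes (-1.19) and imprinted genes (-1.23) to the left with few or no filled circles among the collagens and lymphocyte genes.

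The called genes were also read on arrays that did not enter the difference, although D8 and D9 had lent their spread to its test. Of the 562 risen genes 546 (97.2%) were above normal D5 in both advanced carcinoma arrays D8 and D9, against 35.6% of all genes. Of the 354 fallen genes 314 (88.7%) were below it in both, against 50.4% of all genes. With 1 normal array this is a description without a test. Normal D5 itself lay nearer to the carcinoma than to the hyperplasia mean in 71 risen genes (12.6%) and in 120 fallen genes (33.9%). Among the 15 largest rises this held for 2 genes, Csn2 (9.58 in D5) and Csn1s1 (10.22), both below every carcinoma array. Among the 15 milk and secretory genes it held for 3, and among the 15 largest decreases for 10. Igf2 read 5.25, Dlk1 5.25 and Car3 8.07 in D5, nearer to the carcinoma mean, whereas Bmp5 (8.25) and Angptl1 (9.43) were nearer to the hyperplasia mean. Of the 20 collagens 2 and of the 13 macrophage genes 1 lay nearer to carcinoma in D5.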

How the data were processed

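Expression was measured on Affymetrix Mouse Gene 1.0 ST arrays. The deposited values are on a log2 scale, which the authors obtained by robust multi-average summary (Partek version 6.5). Array medians ran from 5.28 to 5.39, and the number of arrays limits the precision. Of 35399 probe sets, 21789 had 1 gene symbol, 1621 had several and 11989 had none here. The brightest probe set was kept for each gene (999 genes had more than 1), which left 19938 genes.

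Normal D2 and advanced carcinoma D11 were left out, because in each probe set with 1 symbol their average equals that of the remaining 9 arrays within 7.22e-05. Means of 4 stages were fitted to the other 9 arrays with limma 3.58.1 in R 4.3.3 (lmFit and eBayes, 5 residual degrees of freedom), two-sided, with Benjamini-Hochberg adjustment over all genes and a threshold of 0.05. The fit was tested on simulated data with independent noise for each gene. Shifts shared by many genes of 1 array were not simulated. Cohorts are the replicates, and SE is that of the fit.

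Named were the 15 largest called differences in each direction without overlap (clone-named genes, small RNAs and receptor families aside), up to 4 members per list by smallest p, the sort's genes, the inflammasome genes of the study and the 5 called genes with the widest carcinoma range. Other list members called, or shown for contrast, were named after their values were seen. Of 674 listed symbols 631 were measured. The comparison, its members and lists were chosen with earlier results of these data known. The imprinted list, the position of D5 and list counts without D4 were added after seeing the data. Promoters were taken from RefSeq (GRCm38.p6). The alternatives covered the arrays fitted, normalisation, a filter on dim genes, probe sets, the methods' one-way ANOVA contrast, weights, thresholds and each array left out.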

Additional observations from a re-analysis of the deposited data

How the results depend on the processing

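Over 214 named genes and all settings, 3393 values kept their direction and side of the threshold, 688 were no longer past it, 158 came past it and none reversed. Settings that changed only the arrays of other stages, the variance model or the gene filter leave the difference itself unchanged. A reversal could not occur in them. Genes without overlap between the stages, which include every called gene, also could not reverse when an array was left out or weighted. With every probe set fitted, only the brightest of each gene was counted. Genes higher and lower numbered 974 and 871 with all 11 arrays, 0 and 5 with the 6 arrays alone, 1372 and 1716 with array weights, and 608 and 612 after median-centring. Removal of dim genes left 423 and 211 of 9969 genes tested. The one-way ANOVA contrast called 0 in either direction, with 4384 genes at an unadjusted p under 0.05 and a smallest adjusted p of 0.0673. Leaving out each of the 9 arrays gave 0 to 924 higher and 5 to 628 lower genes. Without D8 or D9 the calls were 0 and 5, since a single array of that stage adds no spread. With a fold over 1.5, 207 genes were lower, and with a fold over 2, 367 were higher and 88 lower. Array distances over the 1000 most variable genes averaged 0.0539 within hyperplasia, 0.376 within carcinoma and 0.464 between them. Except where stated, the cause was not tested. No paired analysis was possible because the groups share no replicate numbers.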
